A study of Mus musculus with 16 samples.

Results

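Asparagine synthetase, the enzymes that make serine, and the enzymes that move one-carbon units from serine onto folate were followed in liver and white adipose tissue of obese mice given halofuginone. The set holds 10 genes, taken by symbol for the reaction their product carries out, at a time when earlier results of these data were known: Asns, Psat1, Phgdh, Psph, Shmt1, Shmt2, Mthfd1, Mthfd1l, Mthfd2 and Aldh1l2. Each was found once among the 22322 gene identifiers of the deposited tables. The mice had diet-induced obesity in every group, so no lean group enters any comparison. Treated mice (labelled H100) received halofuginone at 100 µg/kg into the peritoneum every 2 days, their controls (labelled HFD) received vehicle on the same schedule, and tissue was taken after 8 weeks. Poly(A) RNA was sequenced from 5 vehicle and 5 treated livers and from 3 vehicle and 3 treated samples of white adipose tissue, called fat here. The labels give no strain, sex, age or fat depot, and they do not say that the numbered libraries of a group came from separate animals. The p-values therefore measure the spread between these libraries, which may be technical in part.

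Asparagine synthetase moves an amide group from glutamine to aspartate. Serine is made from an intermediate of glycolysis by PHGDH, PSAT1 and PSPH in turn, and serine hydroxymethyltransferase then splits it into glycine and a one-carbon unit held by tetrahydrofolate, in the cytosol (SHMT1) and in mitochondria (SHMT2). In mitochondria the unit is oxidised by MTHFD2 and released as formate by MTHFD1L or lost as CO2 through ALDH1L2, and in the cytosol MTHFD1 loads formate back onto folate for the synthesis of purines, thymidylate and methionine. Halofuginone inhibits the prolyl-tRNA synthetase activity of the protein encoded by Eprs, and uncharged tRNA is known to raise translation of the transcription factor ATF4, which binds C/EBP-ATF elements in genes of amino acid synthesis such as Asns. Healthy liver is known for high levels of the folate enzymes SHMT1 and MTHFD1 and for low levels of PHGDH.

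The sequences before the start sites of 4 of the enzymes are shown because these genes gave the called rises and the called fall that the results below turn on and had an entry in the promoter table used. They are the 250 bases before the start site in the RefSeq promoter table of build GRCm38.p6, an older build than the mm39 named in the submitters' processing notes, and each is written 5′ to 3′ on the minus strand, where all 4 genes lie. Capitals mark TGATGNAA in Asns (chr6:7693210-7693459), CCAAT or its reverse complement ATTGG in Psat1 (chr19:15925060-15925309) and Mthfd2 (chr6:83317605-83317854). The Shmt2 window (chr10:127522445-127522694) holds neither motif and has no capitals.
Asns: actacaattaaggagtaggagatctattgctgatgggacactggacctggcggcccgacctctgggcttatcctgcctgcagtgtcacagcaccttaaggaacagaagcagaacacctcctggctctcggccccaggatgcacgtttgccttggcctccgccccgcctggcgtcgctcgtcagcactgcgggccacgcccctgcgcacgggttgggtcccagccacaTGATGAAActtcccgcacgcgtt
Psat1: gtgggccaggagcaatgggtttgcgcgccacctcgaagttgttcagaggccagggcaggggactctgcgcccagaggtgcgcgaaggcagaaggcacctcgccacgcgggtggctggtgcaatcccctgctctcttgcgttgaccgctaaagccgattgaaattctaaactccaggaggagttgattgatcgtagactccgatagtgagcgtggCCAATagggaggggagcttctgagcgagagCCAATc
Mthfd2: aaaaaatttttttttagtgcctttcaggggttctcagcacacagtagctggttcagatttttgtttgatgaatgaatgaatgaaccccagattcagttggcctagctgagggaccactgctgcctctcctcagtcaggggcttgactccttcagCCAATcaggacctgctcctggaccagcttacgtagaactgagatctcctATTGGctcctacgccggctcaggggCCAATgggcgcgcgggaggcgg
Shmt2: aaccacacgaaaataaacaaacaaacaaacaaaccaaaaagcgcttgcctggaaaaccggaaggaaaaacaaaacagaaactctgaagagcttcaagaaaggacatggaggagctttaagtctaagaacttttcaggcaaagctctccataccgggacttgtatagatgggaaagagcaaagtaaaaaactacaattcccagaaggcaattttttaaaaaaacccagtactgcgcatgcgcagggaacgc

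The table held 9 of the 10 genes in 10 windows, each reaching from 250 bases before the start to 50 bases after it, and 32851 windows in all. Every motif was searched on both strands. TGATGNAA, the core of the C/EBP-ATF element, was present in 3.97% of all windows and in 1 of the 9 genes: the Asns window holds the letters TGATGAAA, with 15 bases between them and the start site. CCAAT, the box read by the factor NF-Y, was present in 37.4% of all windows and in 6 of the 9 genes, namely Psat1, Phgdh, Psph, Mthfd2, Shmt1 and Mthfd1. Psat1 and Mthfd2 hold 3 copies each, where 3.37% of all windows hold 3 or more, and the third copy in Psat1 lies after the start site and is not printed. CCAAT was chosen after the sequences had been read, the motifs share no bases in these windows, and a match describes letters and not a bound site.

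Depth was 20309956 to 31980683 counts in a liver library and 17070614 to 21387799 in a fat library. Levels are given as CPM, the count scaled to library depth, and the 3 counts that a 0 allows equal 0.0938 to 0.148 CPM in liver and 0.140 to 0.176 CPM in fat for counting error alone. The labelled tissues matched their marker genes: the hepatocyte gene Alb averaged 94154 CPM in vehicle liver and 1.62 CPM in vehicle fat, and the adipocyte gene Adipoq averaged 2018 CPM in vehicle fat and 0.0154 CPM in vehicle liver. Of 10 hepatocyte markers 2, Fgb and Cps1, stood at 3 counts or fewer in every fat library, while Trf (2709 CPM), Cyp2e1 (462 CPM) and Hnf4a (5.46 CPM) were present in vehicle fat. Of 8 adipocyte markers 4, Adipoq, Plin1, Lep and Retn, stood that low in every liver library, while Cidec (57.0 CPM), Pparg (18.7 CPM), Lipe (17.8 CPM) and Cfd (13.8 CPM) were present in vehicle liver. The summed level of 10 hepatocyte markers was 139792 to 156732 CPM in vehicle liver, 130011 CPM in treated liver replicate 1 and 57385 to 109048 CPM in the other 4 treated livers. Treated liver replicate 1 also lay near the vehicle livers in most of the 10 enzymes, so liver values are given with and without it. It was set apart by these same values, so fits without it describe and are no independent test. In fat, vehicle replicate 3 stood apart from vehicle replicates 1 and 2, with an adipocyte marker sum of 5964 CPM against 12031 and 12537 CPM and a macrophage marker sum of 9702 CPM against 5287 and 4480 CPM. Epididymis markers, from a tissue that can adjoin fat, summed to 76.5 CPM in that library, 0.540 and 1.44 CPM in vehicle replicates 1 and 2, and 0.744 to 10.6 CPM in treated fat, and the part of all these markers in the fat values was not tested. Markers of the exocrine pancreas, a tissue rich in serine and asparagine enzymes that can be cut out with fat, were near 0: their sum was at most 0.745 CPM in any liver and 0.566 CPM in any fat library.

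The vehicle groups differed in which enzymes they expressed. Levels were compared between genes on the deposited FPKM scale, which divides by gene length. In vehicle liver the folate enzymes stood at the top, with Shmt2 at 77.7 ± 9.95 FPKM, Shmt1 at 57.3 ± 11.7 and Mthfd1 at 49.9 ± 7.53 (SD, n = 5). The ranges of Shmt1 and Mthfd1 overlapped, and every Shmt2 value lay above every Shmt1 value. Psph followed alone at 2.16 ± 0.458 FPKM, then Mthfd2 at 0.612 ± 0.268, Asns at 0.336 ± 0.165, Psat1 at 0.298 ± 0.153 and Mthfd1l at 0.296 ± 0.148, each overlapping its neighbour in that order. Phgdh and Aldh1l2 were lowest, both at 0.056 ± 0.0270 FPKM. In vehicle fat the order began with the serine enzymes Phgdh at 130 ± 69.9 FPKM and Psat1 at 52.7 ± 18.7 (SD, n = 3), whose ranges overlapped. Asns followed at 21.97 ± 6.57 FPKM, overlapping Shmt2 at 13.02 ± 2.64, which overlapped Mthfd1 at 12.3 ± 2.88. Mthfd2 at 6.60 ± 1.89 and Psph at 5.58 ± 1.36 FPKM overlapped each other, as did Shmt1 at 1.90 ± 0.673 and Mthfd1l at 1.79 ± 0.293, and Aldh1l2 stood last at 0.20 ± 0.101 FPKM.

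**Figure D1:**
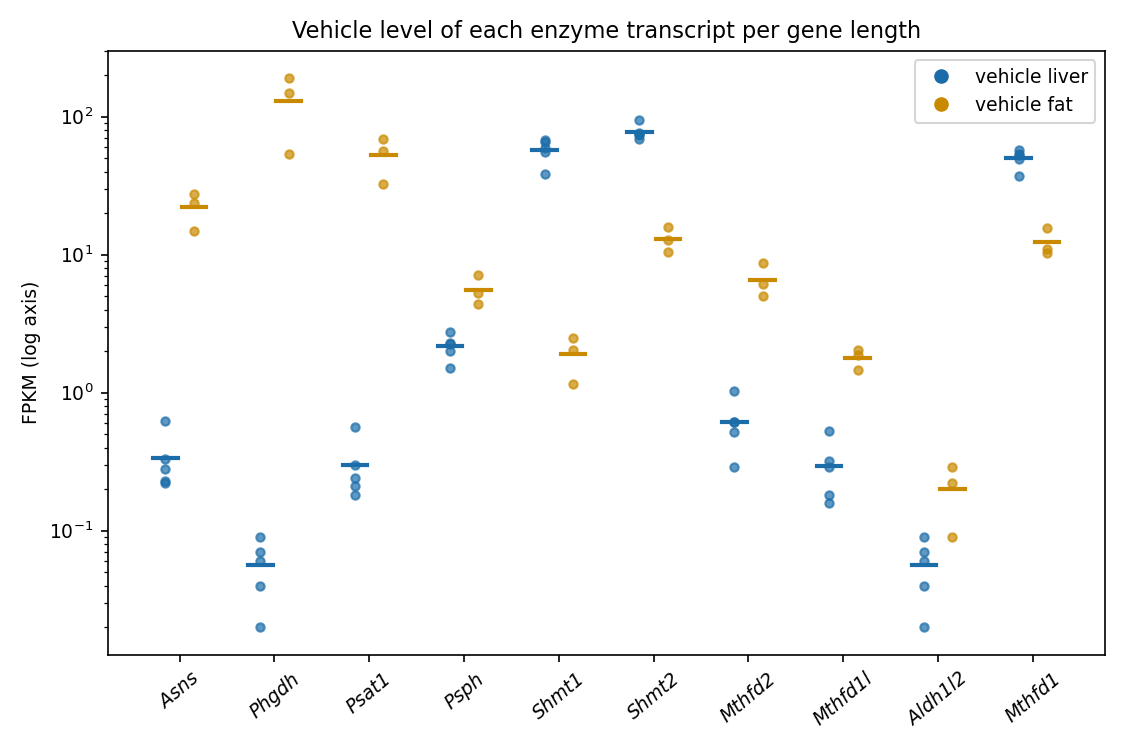
Mean vehicle level of each of the 10 enzymes in liver (n = 5 libraries) and fat (n = 3) in FPKM on a log axis, with the single libraries as points. Shmt2, Shmt1 and Mthfd1 lie above 49 FPKM in liver, while Phgdh, Psat1 and Asns lie highest in fat.

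Tested per gene on counts, 8 of the 10 enzymes differed between vehicle fat and vehicle liver, in a comparison where 72.3% of 14853 genes were called, 40.9% higher and 31.5% lower in fat. The test was edgeR's quasi-likelihood test in 1 fit of all 16 libraries with Benjamini-Hochberg adjustment over all genes tested. An adjusted p under 0.05 counted as a call. Phgdh, the first enzyme of serine synthesis, was higher in fat by 9.93 ± 0.43 on the log2 scale (SE, adjusted p = 1.30e-11), a value that rests on 1 to 4 counts in each vehicle liver. It reached the count minimum for testing in liver in 0 vehicle and 2 treated livers. Phgdh thus entered this test through its fat values, and the count of 8 enzymes is a description only. Psat1, which adds the amino group, was higher by 6.35 ± 0.74 and Asns by 5.02 ± 0.68, and the mitochondrial enzymes Mthfd2 and Mthfd1l were higher by 2.64 ± 0.41 and 1.41 ± 0.45. Shmt1 was lower in fat by a log2 value of -6.02 ± 0.37, Shmt2 by -3.77 ± 0.26 and Mthfd1 by -3.37 ± 0.22. Psph (0.03 ± 0.23) and Aldh1l2 (0.81 ± 0.55) did not pass under TMM scaling, which sets libraries on a common scale by most of their genes. With library size alone the median over all genes moved from 0.18 to 1.36, and Psph (1.22) and Aldh1l2 (1.98) then passed as higher in fat. The other 8 kept direction and call.

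In treated liver Asns, Psat1, Mthfd2 and Aldh1l2 rose and Shmt2 fell. These 5 were the called members of the 9 tested, in a tissue where 23.2% of 12311 genes were called, 12.7% higher and 10.5% lower. Phgdh did not reach the count minimum for testing. Asns, Psat1 and Aldh1l2 reached that minimum in 4, 4 and 2 of the vehicle livers and in all 5 treated ones, where 5 libraries were needed, so they entered the test through their treated values and the count of called members is a description only. With library size alone in place of TMM factors the median log2 fold change over all genes moved from 0.02 to 0.17, and no direction among the 9 turned.

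Asns (ENSMUSG00000029752) was low in vehicle liver, at 0.317, 1.35, 0.606, 0.448 and 0.492 CPM in replicates 1 to 5, that is 8 to 27 counts. Treated livers held 6.71, 127, 55.5, 86.3 and 70.7 CPM, or 135 to 3401 counts. All 5 treated livers lay above all 5 vehicle livers, and replicate 1 was the lowest treated value by far. The log2 fold change was 6.80 ± 0.74 (SE, adjusted p = 0.000896, edgeR). Without treated replicate 1 it was 7.08.

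Psat1 (ENSMUSG00000024640), the aminotransferase of serine synthesis, stood at 0.554, 0.851, 1.58, 0.485 and 0.328 CPM in vehicle livers. In treated livers it stood at 0.596, 19.6, 29.4, 19.7 and 21.6 CPM. Treated replicate 1 lay inside the vehicle range and the other 4 lay more than 10 times above its top. The log2 fold change was 4.63 ± 0.77 (SE, adjusted p = 0.00516, edgeR), and 4.93 without replicate 1.

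Phgdh (ENSMUSG00000053398), which feeds PSAT1, had 3, 1, 4, 2 and 4 counts in vehicle livers and 9, 6, 9, 13 and 9 counts in treated livers. The groups did not overlap, at a level of 14 counts against 46 counts summed over each group. With the count minimum removed its log2 fold change was 1.65 ± 0.42 (SE, adjusted p = 0.0232, edgeR). In treated liver Psat1 reached a mean of 7.77 FPKM and Phgdh 0.200 FPKM. Psph (ENSMUSG00000029446), the phosphatase of the last step, ranged from 2.42 to 5.21 CPM in vehicle livers and from 3.23 to 4.92 CPM in treated livers, with a log2 fold change of 0.09 ± 0.20, and 0.14 without treated replicate 1. The 3 consecutive enzymes of serine synthesis thus showed different values. Psat1 rose, Phgdh was higher at a low level (6 to 13 counts against 1 to 4), and Psph overlapped throughout.

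Mthfd2 (ENSMUSG00000005667), the mitochondrial dehydrogenase and cyclohydrolase, stood at 1.15, 0.651, 1.40, 0.896 and 0.787 CPM in vehicle livers. Treated livers held 1.09, 5.03, 3.51, 2.55 and 4.13 CPM, so that only replicate 1 lay within the vehicle range. The log2 fold change was 1.75 ± 0.36 (SE, adjusted p = 0.0105, edgeR), and 1.94 without replicate 1. Aldh1l2 (ENSMUSG00000020256), the mitochondrial formyltetrahydrofolate dehydrogenase, stood at 0.436, 0.451, 0.233, 0.373 and 0.131 CPM in vehicle livers and at 0.596, 3.69, 2.58, 1.39 and 2.16 CPM in treated livers. These groups did not overlap, and replicate 1 was again the lowest treated library. Its log2 fold change was 2.70 ± 0.48 (SE, adjusted p = 0.00640, edgeR), and 2.91 without replicate 1. Mthfd1l (ENSMUSG00000040675), the ligase that frees formate, stood at 1.11, 0.701, 0.653, 1.94 and 1.21 CPM in vehicle and 1.09, 1.38, 2.54, 6.10 and 3.76 CPM in treated livers, and replicates 1 and 2 lay within the vehicle range. With 1.39 ± 0.47 on the log2 scale it missed the threshold (adjusted p = 0.0514, edgeR). It passed with DESeq2 (adjusted p = 0.0146), with library size alone (adjusted p = 0.0287) and with the newer quasi-likelihood option of edgeR (adjusted p = 0.0490). With the replicate number as a block it passed too (adjusted p = 0.0343, edgeR). It also passed without vehicle replicate 4 or treated replicate 2, and without treated replicate 1, where it was 1.57.

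Shmt2 (ENSMUSG00000025403), the mitochondrial enzyme that splits serine, moved the other way. Vehicle livers held 166, 183, 188, 218 and 179.8 CPM and treated livers 140.0, 70.3, 65.8, 81.1 and 78.0 CPM, with no overlap. Replicate 1 was the highest treated value. The log2 fold change was -1.10 ± 0.19 (SE, adjusted p = 0.00633, edgeR), and -1.36 without replicate 1. Its cytosolic counterpart Shmt1 (ENSMUSG00000020534) stood at 164, 158, 109, 176 and 194 CPM in vehicle and 170.0, 74.6, 70.8, 110.1 and 92.8 CPM in treated livers. Replicates 1 and 4 overlapped the vehicle livers, and the log2 value of -0.63 ± 0.24 did not pass (adjusted p = 0.0754). Mthfd1 (ENSMUSG00000021048), the cytosolic enzyme of the same pathway, gave -0.44 ± 0.17 (adjusted p = 0.0829), with 121 to 186 CPM in vehicle and 93.4 to 164 CPM in treated livers. Without treated replicate 1 both passed in edgeR, Shmt1 at -0.90 (adjusted p = 0.00228) and Mthfd1 at -0.59 (adjusted p = 0.00906). That library was picked by its closeness to the vehicle livers, so these passes are a description. DESeq2 with all libraries called Shmt1 (adjusted p = 0.0404) too. With all libraries and the replicate number as a block, edgeR called Shmt1 (adjusted p = 0.0431) and Mthfd1 (adjusted p = 0.0437). The labels do not say that equal numbers mark a shared animal.

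**Figure D2:**
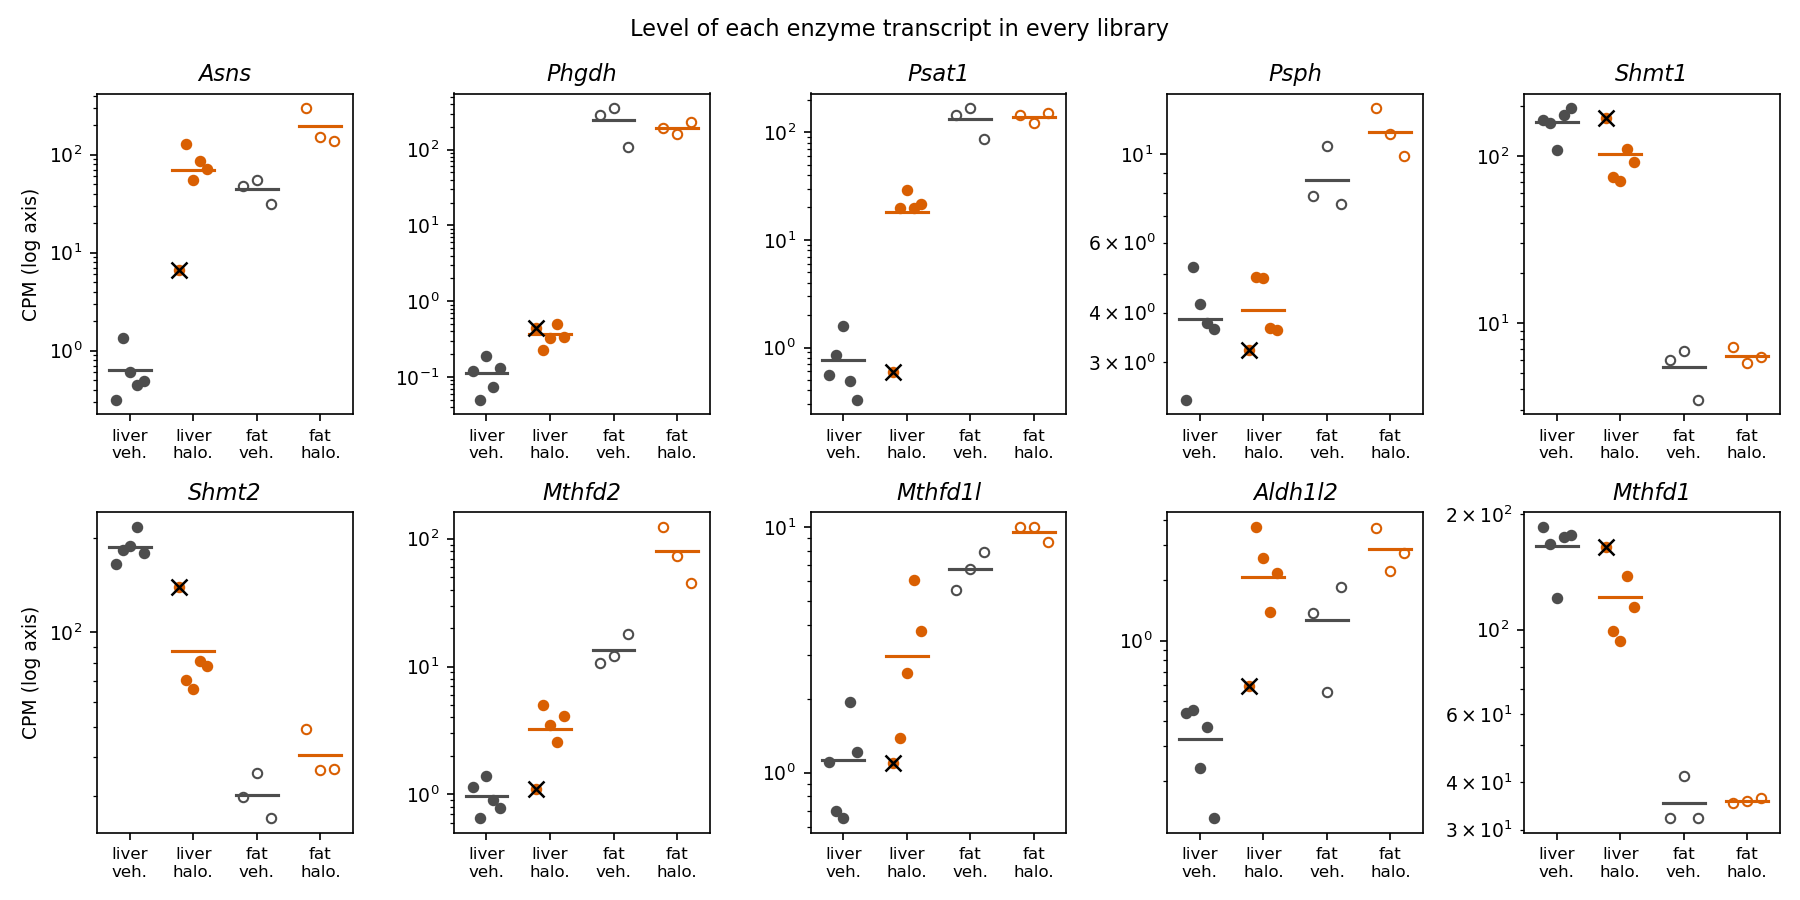
CPM of each of the 10 enzymes in every library on a log axis, by tissue and treatment, with bars at the group means and treated liver replicate 1 drawn as a black cross. In liver that cross lies in the vehicle range for Psat1 and Mthfd2 and outside it for Asns, Aldh1l2 and Shmt2.

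In all 10 fits that left out 1 liver library each, Asns, Psat1, Mthfd2, Aldh1l2 and Shmt2 were called in the same direction. Fitted without treated replicate 1, 8 enzymes were called where 42.8% of 12422 genes were: 5 higher (Asns, Psat1, Mthfd2, Aldh1l2 and Mthfd1l) and 3 lower (Shmt2, Shmt1 and Mthfd1). The other fits without 1 liver library called 10.3% to 15.4% of genes. Asns and Aldh1l2 had all treated livers above all vehicle livers, as 5.13% of genes tested did, and Shmt2 had all of them below, as 6.55% did. Asns and Aldh1l2 entered the test through their treated values, which favours such a separation, so this is a description only. Phgdh also had all treated livers above, but it was not tested and that share does not cover it. The order of levels changed with treatment. In treated liver Shmt1, Shmt2, Mthfd1 and Asns had means of 40.1, 39.8, 39.5 and 37.0 FPKM with overlapping ranges, where Asns had been at 0.336 FPKM in vehicle liver. Without treated replicate 1 the means were 35.0, 34.6, 36.7 and 45.4 FPKM in that order of genes, so Asns then stood first. Since tissue RNA was measured, fewer cells of a type and less RNA per cell cannot be told apart, and treated replicates 2 to 5, which had the lowest Shmt2 levels, had the lowest hepatocyte marker sums. Of the 10 hepatocyte markers 2 were called lower and 1 higher, and their part in the fall of Shmt2 was not tested.

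In fat, 0 of the 10 enzymes passed edgeR's test, as 0% of 14030 genes did, where the smallest adjusted p was 0.0887. At an unadjusted p under 0.05 there were 2 of the 10, Asns and Mthfd2, both higher, beside 5.5% of all genes higher and 7.91% lower. DESeq2 called 723 genes (5.15%) in the same table and the same pair of enzymes. All 10 enzymes were tested in fat, and their libraries all exceeded the count minimum. All 3 treated libraries lay above all 3 vehicle libraries for Asns, Mthfd2, Aldh1l2, Mthfd1l and Shmt2, 5 of 10 enzymes beside 10.2% of genes tested.

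Mthfd2 was at 10.7, 11.98 and 17.9 CPM in vehicle fat and at 124, 72.8 and 45.3 CPM in treated fat. The lowest treated library was above the highest vehicle library by over 2 times. Its log2 fold change was 2.58 ± 0.41 (SE, adjusted p = 0.118 with edgeR and 3.91e-07 with DESeq2). Asns was at 48.1, 54.5 and 31.5 CPM in vehicle fat and at 298, 151 and 136 CPM in treated fat, again with no overlap and with treated replicate 1 highest. Its log2 fold change was 2.12 ± 0.37 (SE, adjusted p = 0.130 with edgeR and 7.74e-06 with DESeq2).

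Aldh1l2 was at 1.38, 0.555 and 1.85 CPM in vehicle fat and 3.62, 2.23 and 2.74 CPM in treated fat, for a log2 value of 1.18 ± 0.52 (adjusted p = 0.388). Mthfd1l was at 5.52, 6.71 and 7.91 CPM in vehicle and 10.02, 9.95 and 8.68 CPM in treated fat, for 0.51 ± 0.22 (adjusted p = 0.385). Shmt2 was at 29.7, 35.5 and 25.5 CPM in vehicle and 49.0, 36.3 and 36.7 CPM in treated fat, for 0.43 ± 0.20 (adjusted p = 0.403). For these 3 genes the groups were apart but the gap was small beside the spread within groups.

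The serine enzymes Phgdh and Psat1, which were the most abundant of the set in vehicle fat, gave no such separation. Phgdh was at 287, 354 and 107 CPM in vehicle fat and 191, 159.6 and 233 CPM in treated fat, for a log2 value of -0.36 ± 0.42, and Psat1 was at 143, 168 and 85.6 CPM in vehicle and 146, 122 and 151 CPM in treated fat, for 0.08 ± 0.26. In both genes, as in Asns, Psph, Shmt1 and Shmt2, vehicle replicate 3 was the lowest library. That library had the low adipocyte and high macrophage and epididymis marker sums. In Mthfd2, Mthfd1l and Aldh1l2 it was the highest vehicle library, at 17.9, 7.91 and 1.85 CPM, and in Mthfd1 it lay between the other vehicle libraries. Without vehicle replicate 3 Psat1 turned to -0.15 and Phgdh moved to -0.72 on the log2 scale, and without vehicle replicate 2 Phgdh was -0.016. Psph, at 7.503 to 10.5 CPM in vehicle and 9.89 to 13.1 CPM in treated fat, gave 0.40 ± 0.22, Shmt1 gave 0.23 ± 0.31 and Mthfd1 gave 0.02 ± 0.15. Without vehicle replicate 3 Mthfd1 was -0.040 and Shmt1 -0.0078, and without vehicle replicate 1 Mthfd1 was -0.041.

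**Figure D3:**
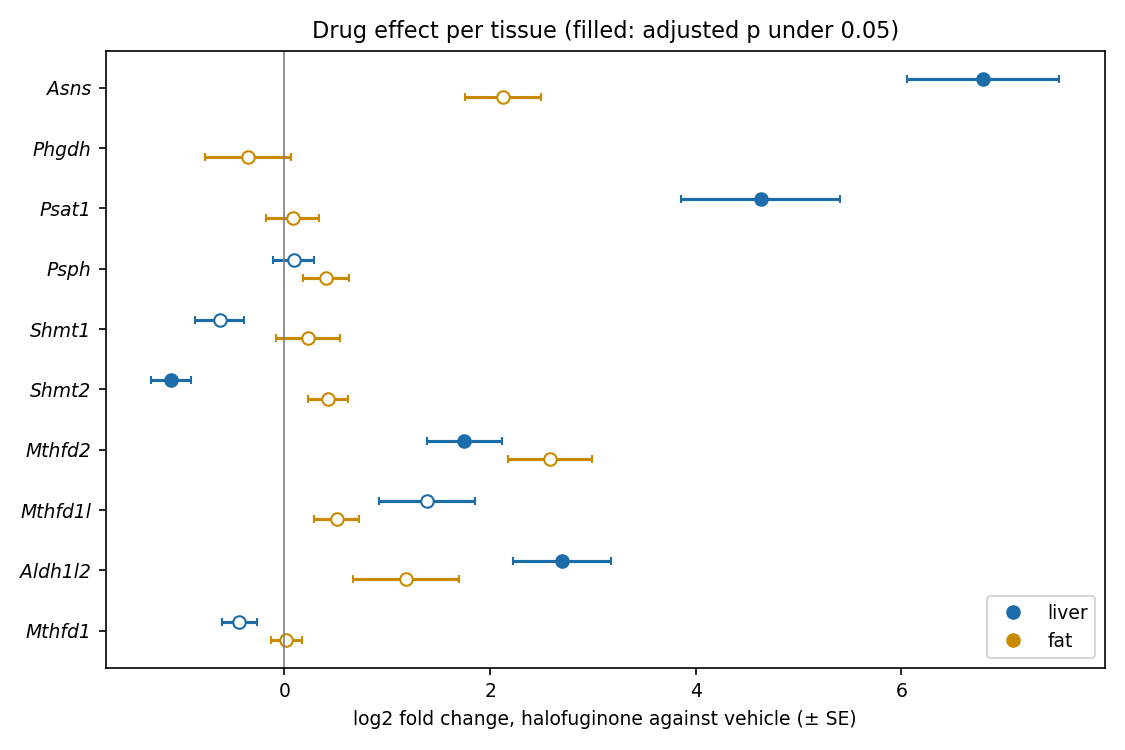
Log2 fold change of treated over vehicle with its SE for each enzyme in liver and fat from edgeR, filled where the adjusted p was under 0.05. Asns, Psat1, Psph, Mthfd1l, Mthfd2 and Aldh1l2 lie above 0 in both tissues. Asns, Psat1, Mthfd2, Aldh1l2 and Shmt2 are filled in liver, and no enzyme is filled in fat.

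Whether an enzyme responded differently in the tissues was tested by subtracting the liver effect from the fat effect. The difference was called for 3 of the 10 enzymes, beside 0.949% of 14853 genes (0.417% higher and 0.532% lower). For Asns it was -4.70 ± 0.92 (SE, adjusted p = 0.0323, edgeR) and for Psat1 -4.58 ± 0.98 (adjusted p = 0.0412), both larger in liver, where both started from under 1 CPM on average. For Shmt2 it was 1.51 ± 0.31 (adjusted p = 0.0331), from -1.10 in liver and 0.43 in fat. These calls depended on single libraries: leaving out 1 of the 16 ended that of Asns in 9 fits (liver vehicle 1, 3, 4 and 5, liver treated 3, 4 and 5, fat vehicle 1 or fat treated 2) and that of Psat1 in 15, every one but liver treated 1. That of Shmt2 ended in 11 fits, every one but liver vehicle 1, liver treated 1 and 2, fat vehicle 2 and fat treated 3. Values in these fits ran from -5.15 to -4.36 for Asns, from -5.03 to -4.32 for Psat1 and from 1.35 to 1.74 for Shmt2. The labels do not say whether liver and fat libraries of the same number came from 1 animal, and with such libraries blocked as 1 animal all 3 calls ended, at -3.95 for Asns (adjusted p = 0.475), -3.37 for Psat1 (adjusted p = 0.539) and 1.45 for Shmt2 (adjusted p = 0.253). A block by number within each tissue ended those of Psat1 (adjusted p = 0.110) and Shmt2 (adjusted p = 0.109). With limma on FPKM at a pseudocount of 1 the difference was -2.31 for Asns (adjusted p = 0.164) and -2.22 for Psat1 (adjusted p = 0.131), and at 0.1 it was -3.84 (adjusted p = 0.0602) and -3.50 (adjusted p = 0.148). For Mthfd2 the difference was 0.81 ± 0.57 and did not pass (adjusted p = 0.530). Phgdh (-2.03 ± 0.64, adjusted p = 0.132) passed only without fat vehicle replicate 3, at -2.40 (adjusted p = 0.0206). The liver part of its difference rests on 14 vehicle and 46 treated counts summed over each group, and it entered this fit through its fat values.

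Atf4 and Eprs were read beside the enzymes. Atf4 mRNA was 70.1 ± 11.1 CPM in vehicle and 119 ± 32.3 CPM in treated liver, a log2 fold change of 0.77 ± 0.20 (SE, adjusted p = 0.0220, edgeR). That call was lost when vehicle replicate 1, 2 or 4 or treated replicate 3 or 5 was left out, with adjusted p up to 0.0568. Eprs rose in liver by 1.24 ± 0.25 on the log2 scale (adjusted p = 0.0102). In fat Atf4 gave 1.15 ± 0.26 (adjusted p = 0.173) and Eprs 1.32 ± 0.31 (adjusted p = 0.187), each with no overlap of the groups. Both were called there by DESeq2 (adjusted p = 0.00218 and 0.00434).

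Of 51 further genes of the adjoining pathways, all tested in liver, 2 were called higher (3.92%) and 10 lower (19.6%), beside the 12.7% and 10.5% of all genes. The falls lay in the folate, glycine and methionine lists and in glutamine synthesis, and the rises in purine synthesis. Bhmt, which remethylates homocysteine with betaine, fell from 4493 ± 905 to 1264 ± 448 CPM (SD, n = 5 and 5), or -1.83 ± 0.28 on the log2 scale (SE, adjusted p = 0.00374, edgeR). Dmgdh, which takes one-carbon units from dimethylglycine, fell by 1.22 on that scale, with groups that did not overlap. Among 14 methionine cycle genes 4 fell and 0 rose, and the other two that fell were Mat2a (-0.45) and Bhmt2 (-0.41).

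Among 13 folate genes 3 fell and 0 rose. Aldh1l1, the cytosolic counterpart of Aldh1l2, went from 607 ± 111 to 366 ± 112 CPM (-0.73 ± 0.21, adjusted p = 0.0321), opposite in sign to Aldh1l2. Ggh, the hydrolase that trims the glutamate tail of folate, fell from 12.7 ± 1.021 to 9.40 ± 0.603 CPM (-0.44 ± 0.09, adjusted p = 0.0104), and Mthfs fell too (-0.41), both with no overlap. Of 9 genes that use serine or glycine, 2 fell, both of the glycine cleavage system, Gcsh by 0.54 and Amt by 0.49. Glul, which makes the glutamine that ASNS uses, was the only 1 of 9 asparagine and glutamate genes called, and fell from 1126 ± 82.1 to 507 ± 196 CPM (-1.15 ± 0.22, adjusted p = 0.00865). Of 6 purine genes 2 rose, Adsl by 0.86 ± 0.21 (adjusted p = 0.0174) and Gart, which uses the formyl folate, by 0.50 ± 0.15 (adjusted p = 0.0315).

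Several of these calls were lost when 1 library was left out, that of Aldh1l1 without vehicle replicate 1, 2, 4 or 5 or treated replicate 2, 3 or 5. That of Amt was lost without vehicle replicate 4 or 5 or treated replicate 3 or 5, and that of Gart in all such fits except those without vehicle replicate 5 or treated replicate 1. With library size alone Amt (-0.34, adjusted p = 0.0761) and Ggh (-0.28, adjusted p = 0.054) missed the threshold, as both did with limma on FPKM. Mthfs, Mat2a and Bhmt2 lie outside the naming rule and were named after their values were seen.

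In fat 42 of the 51 genes were tested and 0 were called. At an unadjusted p under 0.05, 3 were higher and 6 lower, beside 5.5% and 7.91% of all genes. Mat2a, the synthase of the methyl donor S-adenosylmethionine, was at 138 ± 12.1 CPM in vehicle and 258 ± 30.8 CPM in treated fat, a log2 value of 0.90 ± 0.16 (adjusted p = 0.142 with edgeR and 3.40e-06 with DESeq2). Its log2 value in liver was negative. Got1, which makes aspartate, was at 31.4 ± 1.18 and 64.7 ± 23.0 CPM, or 1.04 ± 0.26 (adjusted p = 0.208 with edgeR and 0.0129 with DESeq2). Slc46a1, a folate transporter, gave -1.11 ± 0.29 and Ggh -0.56 ± 0.16, and both were called by DESeq2. The remaining genes named by the rule gave -0.59 for Gcsh, -0.98 for Glyctk, -0.74 for Sardh, -0.85 for Gpt2, 0.31 for Ppat and 0.18 for Atic, and no test called them. Markers of cycling cells, which use one-carbon units for nucleotides, summed to 73.5 to 175 CPM in vehicle and 26.6 to 42.9 CPM in treated fat, and to 11.6 to 13.8 and 4.51 to 11.9 CPM in liver. Macrophage markers summed to 4480 to 9702 CPM in vehicle and 2979 to 3121 CPM in treated fat, and their part in the fat values was not tested.

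**Figure D4:**
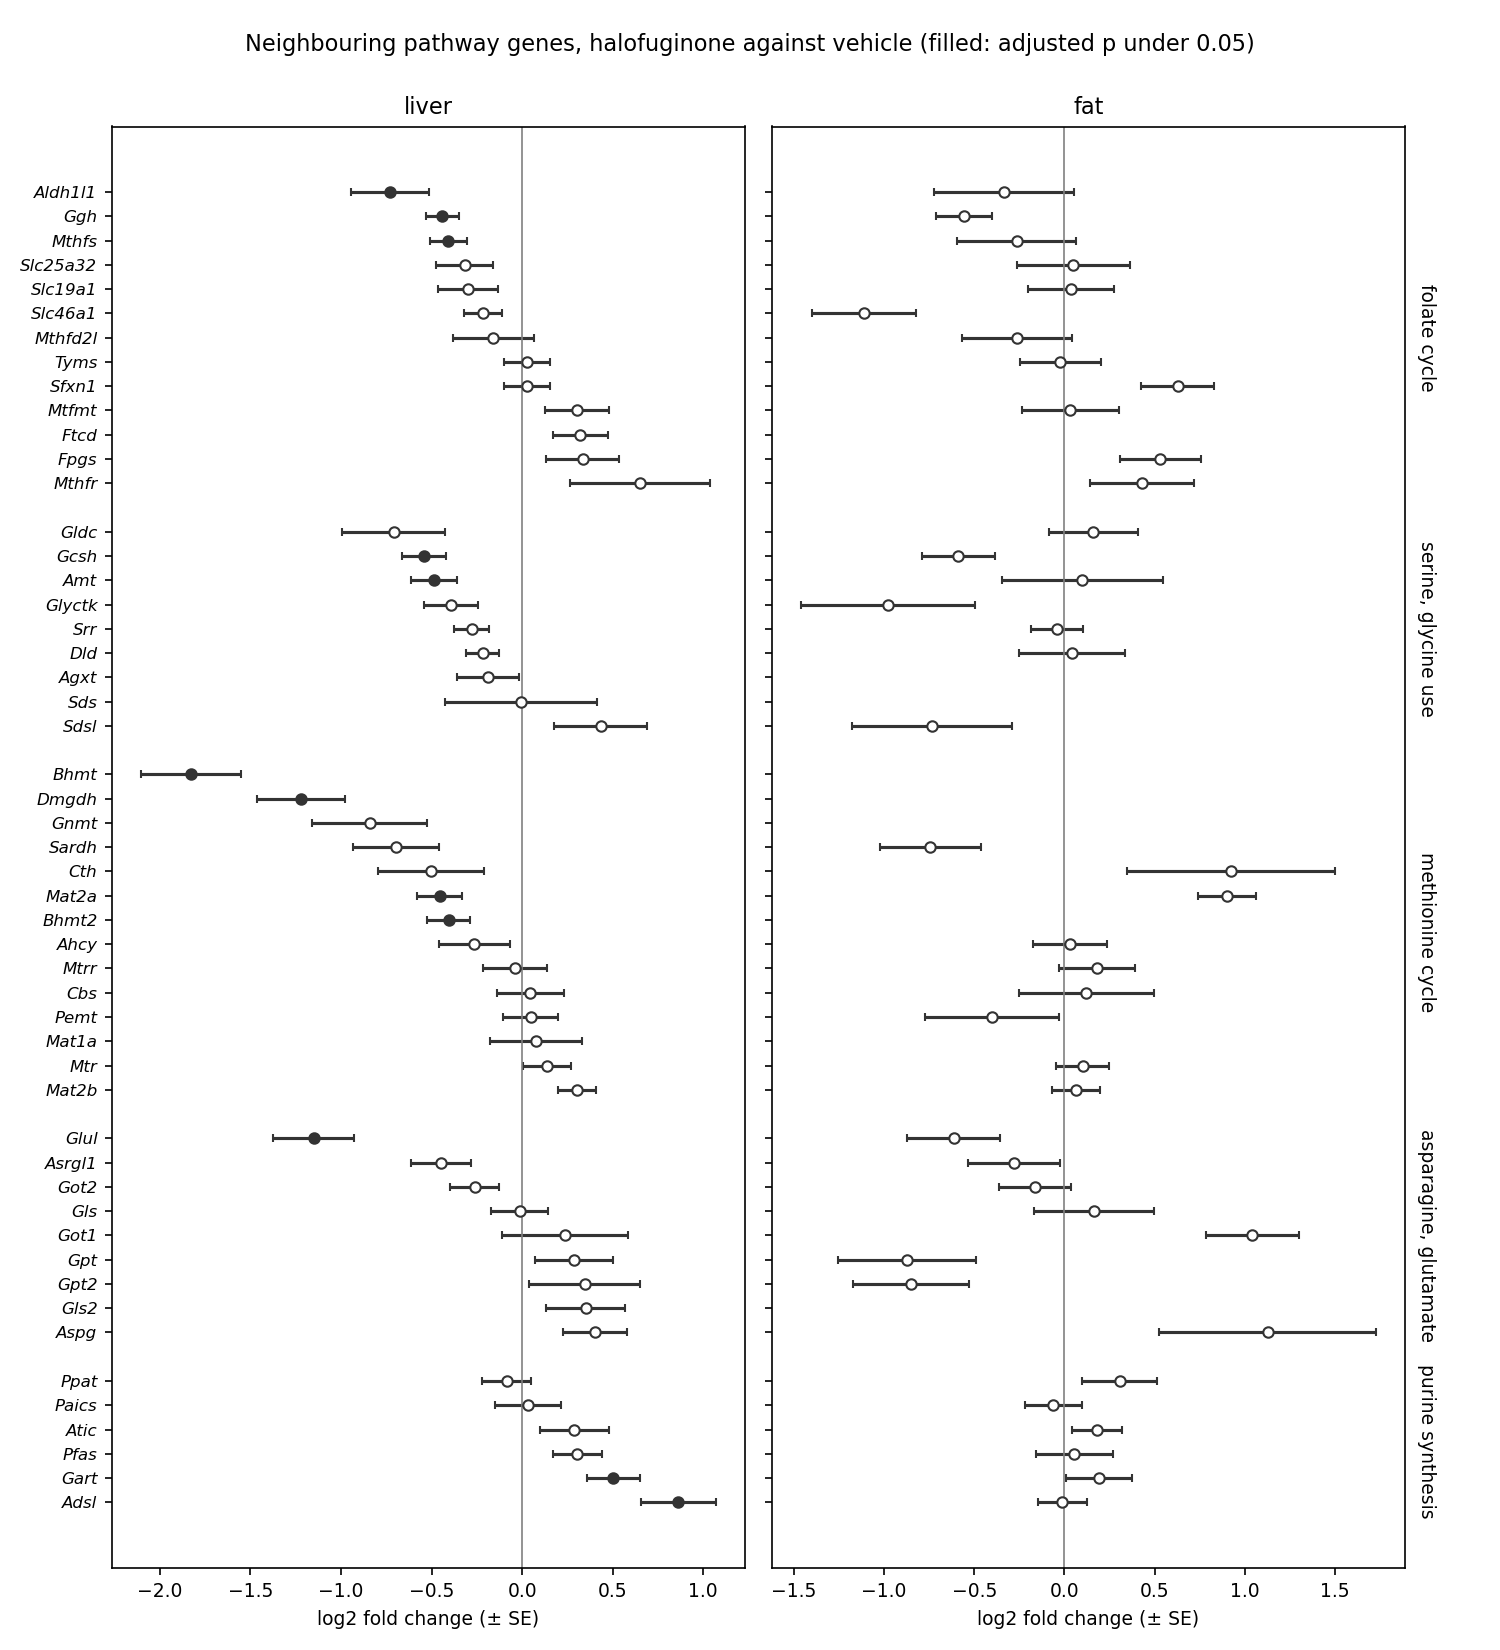
Log2 fold change with its SE of the 51 further pathway genes in liver and of the 42 tested in fat, grouped by list and filled where called. In liver 10 lie below 0 as called genes, with Bhmt lowest, and 2 purine genes lie above.

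The genes whose libraries followed Asns and Mthfd2 most closely were taken by the root mean square difference of log2 CPM, each gene centred on its vehicle mean, over the 10 liver or 6 fat libraries. Among 9067 genes in liver, those nearest to Asns were Trib3 (0.93), a target of ATF4, Nupr1 (1.01) and Fibin (1.60). Those nearest to Mthfd2 in liver were Tcea1 (0.23), Rnf185 (0.23) and Arl15 (0.23), with log2 fold changes of 1.27, 1.36 and 1.23. The 0.5 CPM added before taking logs shrinks the liver rises of Asns and Mthfd2, whose vehicle means were 0.643 and 0.976 CPM. Their nearest genes in liver may therefore depend on that setting. Among 11190 genes in fat, those nearest to Asns were Atf5 (0.23), Acot2 (0.26) and Ifitm6 (0.36), and those nearest to Mthfd2 were Ddit3 (0.41), Acot2 (0.47) and Gdf15 (0.50). Mean levels in vehicle and treated libraries were 3.99 and 219 CPM for Trib3 in liver, 70.6 and 284 CPM for Atf5 in fat, and 17.4 and 89.7 CPM for Ddit3 in fat. The measure describes likeness of pattern in these libraries only.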

How the data were processed

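Per the file headers, the authors deposited 1 table per tissue with a count and an FPKM column for each library. Per the submitters' processing notes, fastp 0.18.0, Bowtie2 2.2.8, HISAT2, StringTie 1.3.1 and RSEM were named with build mm39, with no order. The use of strand and the handling of duplicates were not given in the sources used here, so reads of overlapping or antisense genes may be mixed. Counts were tested as deposited with edgeR 4.0.16 in R 4.3.3 (filterByExpr with a minimum count of 10, TMM factors, glmQLFit, glmQLFTest, two-sided, Benjamini-Hochberg), each tissue alone and all 16 libraries together for the comparisons across tissues. SE is the absolute log2 fold change over the square root of F. CPM used TMM-scaled library sizes within a tissue. DESeq2 1.42.0 and limma 3.58.1 on the deposited FPKM values served as alternatives, and the procedure was tested on simulated data. The 10 members, the lists and the rules were chosen with earlier results of these data known, and a folate gene is not reported here. Each list's further genes named per tissue were the called ones of greatest rise and greatest fall, up to 2 each, or where none was called the 2 with the smallest unadjusted p. These and the genes of likeness (pseudocount 0.5 CPM) had to reach a group mean of 5 CPM. Same-numbered libraries were checked for pairing by the correlation of their deviations from the group means: it was -0.18 to 0.10 between liver arms, -0.59 to 0.16 between fat arms, 0.12 to 0.25 between vehicle liver and fat, and -0.15 to 0.07 between treated liver and fat. Only the vehicle libraries of both tissues thus met the limit of 0.1 in every pair. No libraries were alike within sampling noise (smallest chi-square per degree of freedom 29.7 in liver and 50.5 in fat).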

Additional observations from a re-analysis of the deposited data

Results flagged for a closer look

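Within groups of 5 liver libraries, 3 of 20 groups tested (10 enzymes in 2 arms) held 1 library far from the rest, where chance gives 1 in 20. Asns in vehicle replicate 2 was 1.35 CPM, next to 0.606 CPM. Mthfd1 in vehicle replicate 3 was 121 CPM, next to 167 CPM. Shmt2 in treated replicate 1 was 140.0 CPM, next to 81.1 CPM. The drug effect was called different between the tissues for 3 enzymes, beside 0.949% of 14853 genes. The fat effect minus the liver effect was -4.70 for Asns, -4.58 for Psat1 and 1.51 for Shmt2. Of 16 fits that each left out 1 library, these calls held in 7, 1 and 5, in that order. All 3 ended with same-numbered liver and fat libraries blocked as 1 animal.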

How the results depend on the processing

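Of the values recomputed under the alternatives, 1306 kept direction and side of the threshold or, for counts of calls, stayed within 1.5 times. A further 74 no longer passed, 23 newly passed and 7 changed sign, and 111 counts moved by more than 1.5 times or from or to 0. The cause was not tested unless the setting shows it. On FPKM with limma, at either pseudocount, 3 enzymes were called in liver, where the filter left 6 of the 10, and 1 across tissues. At pseudocounts of 1 and 0.1 these fits called 28.4% and 28.3% of 9947 genes in liver. Across tissues they called 2.93% and 1.41% of 12781 genes. DESeq2 called 723 genes (5.15%) and 2 enzymes in fat and 687 genes (4.63%) across tissues. With limma at a pseudocount of 1, 17 genes were called in fat and 375 across tissues, and with no count filter 1 gene in fat. Leaving out 1 library gave 1275 to 5312 genes (10.3% to 42.8%) and 5 to 8 enzymes called in liver. In fat it gave 0 to 1 genes, and across tissues 34 to 1053 genes (0.23% to 7.07%) and 0 to 3 enzymes. Signs turned in such fits for Psph in liver (-0.042 to 0.20, below 0 without vehicle 1) and between vehicle tissues (-0.16 to 0.16, below 0 without vehicle fat 2, and -0.10 without vehicle liver 1), and in fat for Mthfd1 (-0.041 to 0.15, below 0 without vehicle 1 or, at -0.040, 3), Psat1 (-0.15 to 0.29) and Shmt1 (-0.0078 to 0.43), both below 0 without vehicle 3.

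With the replicate number as a block, 8 enzymes and 1901 genes (15.4% of 12311) were called in liver and 0 genes in fat. Across tissues, a block of same-numbered liver and fat libraries left 2 genes (0.0135%) and 0 enzymes. A block by number within each tissue left 20 genes (0.135%) and 1 enzyme. Within a tissue the numbers did not pair the arms: 3 of 10 liver and 1 of 6 fat libraries were best matched by their own number. Between tissues every vehicle pair correlated above 0.1 and the treated pairs did not, so the pairing of the tissues is unsettled. For vehicle fat against vehicle liver the block changed no enzyme's call.

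A depth of 17070614 to 31980683 counts left Phgdh in liver, at 1 to 13 counts, under the count minimum of the main test, and 3 libraries a group limit fat. Protein and enzyme activity were not measured.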
